A study of Platynereis dumerilii with 97 samples.

Results

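The transient early transcripts are 82 of the 10908 transcripts counted in single embryos of the marine annelid Platynereis dumerilii. They were chosen by their counts per 1000000 counts of a library (CPM) in 3 blocks of labelled age, where the counts and the library totals of all embryos in a block were summed before division. A member had at most 5 CPM at 1-6 h, at least 20 CPM at 7-12 h and at least 5 times its 1-6 h level, and under 0.5 of its 7-12 h level at 37-51 h without the library labelled 48 h. Levels in these 3 blocks are therefore a description and carry no test, while embryos of 13-36 h and of 52-120 h were not used in the choice. The first 3 criteria were met by 219 transcripts, and 37.4% of these were members. The other 137 kept at least 0.5 of their 7-12 h level at 37-51 h and are called the kept transcripts here.

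The earliest cell cycles of an animal embryo run on RNA and protein stored in the egg. Transcription from the embryo's own genome starts later, and in flies and fish many of the first genes switched on are needed only briefly, for instance to set cell fates or to help clear maternal RNA. Platynereis is an annelid with spiral cleavage, in which cells divide in a stereotyped order before gastrulation and the swimming trochophore larva. The counts do not tell newly made RNA from stored RNA, so whether the members are products of the embryo's genome was not tested. The files pair no identifier with a gene name, and the members are therefore given by identifier, without a known role.

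The study holds 97 samples, each 1 whole embryo, taken at about hourly steps from eggs of several matings that developed at 18 °C. Polyadenylated RNA was amplified by CEL-Seq, a method that barcodes RNA from single embryos and counts reads near the 3′ end of each transcript. The labels give no treatment or genotype that differs between embryos, and do not say which embryos shared parents. Replicates of a block are embryos of different hours, so the spread within a block holds age and parentage as well as error. The blocks were 1-6 h (n = 6), 7-12 h (n = 6), 13-17 h (n = 5), 18-23 h (n = 6), 25-30 h (n = 6), 31-36 h (n = 6), 37-51 h (n = 15), 52-65 h (n = 14) and 66-120 h (n = 32), with the library labelled 24 h apart. In a whole embryo, fewer cells with a transcript and less of it per cell cannot be told apart.

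Transcript totals ran from 3555 to 2577933 counts per embryo. PT_v1_tr_02502 alone held 21.3% to 51.3% of them at 37-51 h and 48.0% to 68.7% at 1-6 h, and was left out of the totals behind every CPM. With it in the totals, 41 transcripts would meet the limits, 24 of them members here. The libraries labelled 21, 24, 48 and 62 h stood apart in their totals or in the levels described here. The one labelled 72 h had a member sum of 711 CPM, within the 421 to 1859 CPM of the other embryos of 66-120 h. Its total without PT_v1_tr_02502, 844098 counts, was only a little above their highest, 808260. Libraries labelled 24, 48, 62 and 72 h were left out of the block values and tests. The library labelled 21 h was kept, and results that rest on it are given without it. Without PT_v1_tr_02502, libraries of 20, 21, 22 and 23 h had 234990, 94681, 176752 and 181219 counts, against 226697 to 462577 at 13-17 h. Their spike-in shares were 17.7%, 28.4%, 24.1% and 24.8%. Spike-ins made up 12.2% to 28.4% of counts at 18-23 h (median 20.9%), against 10.1% to 19.6% at 13-17 h (median 10.9%). Libraries of 21-23 h were thus shallower and richer in spike-in RNA than those of 13-17 h. The 20 h library lay within the ranges of 13-17 h. Embryos of up to 51 h are numbered 1 to 50 and those from 52 h on 51 to 97, except that the 24 h embryo is numbered 95. Whether the numbers mark batches of libraries is not given in the sources used here, and across 51 h age and number cannot be told apart.

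The members appeared between the embryos of 6 h and 8 h. In the embryos of 1, 2, 3, 4, 5 and 6 h, 7, 5, 16, 8, 12 and 29 of the 82 had any count, and in those of 7, 8, 9, 10, 11 and 12 h, 63, 77, 73, 73, 67 and 70 had one. The summed level of all members was 74.0, 132, 99.6, 60.7, 117 and 213 CPM in the first 6 embryos and 1644, 5478, 3642, 4594, 5512 and 5946 CPM in the next 6. No embryo of 7-12 h overlapped an embryo of 1-6 h, a separation that the choice of members builds in. In reads, the members held 8861 counts at 7-12 h against 182 counts at 1-6 h, and 30 members had no count at all in the earlier block. For those 30, the 3 counts that an empty block allows correspond to 1.89 CPM at 1-6 h. Detection was broad for most members: 41 were counted in all 6 embryos of 7-12 h, 22 in 5, 12 in 4, 5 in 3 and 2 in 2.

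**Figure D1:**
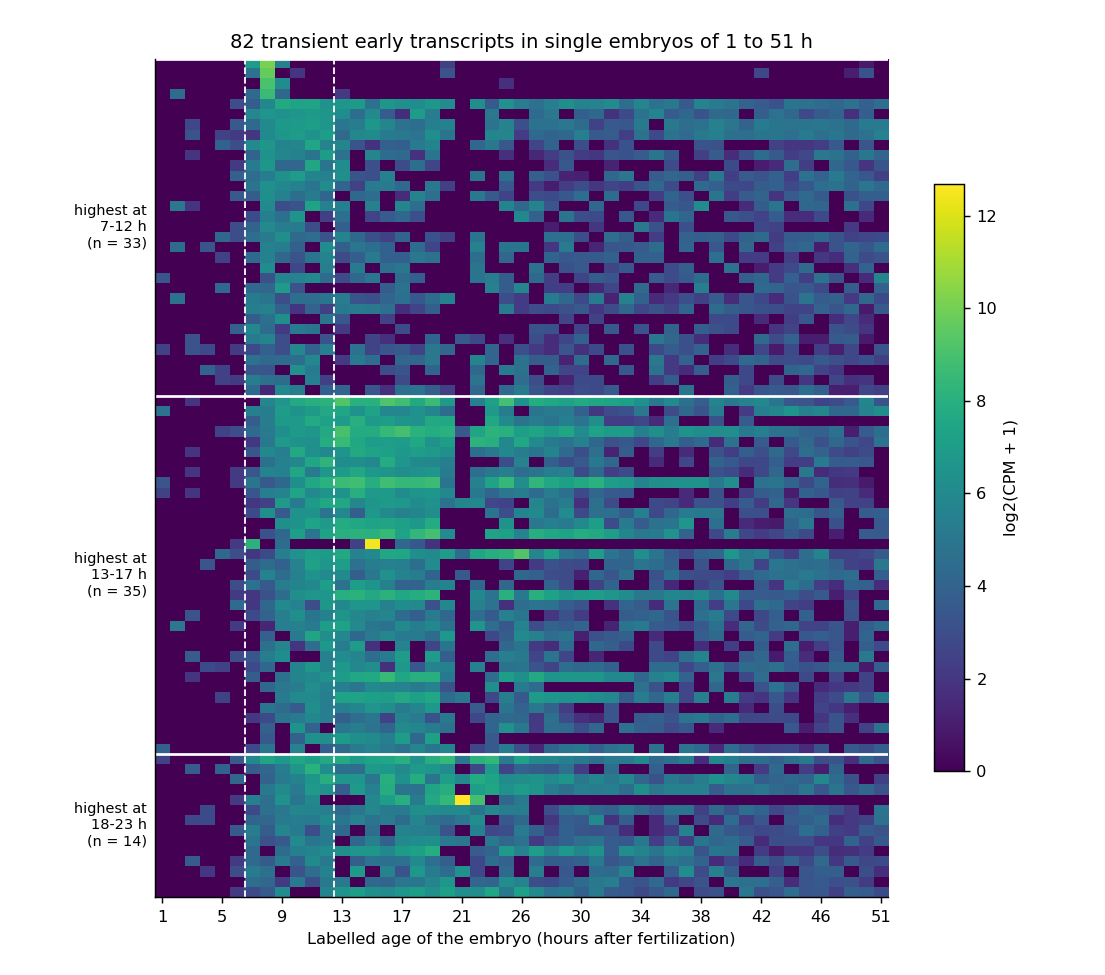
Level of each of the 82 transient early transcripts (rows, as log2(CPM + 1) in colour) in each embryo of 1 to 51 h (columns, without 24 and 48 h), grouped by the block with the highest pooled level, with dashed lines around 7-12 h. The rows darken again at different hours, and the column of 21 h is nearly empty but for PT_v1_tr_05185.

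After 12 h the members parted ways. The highest pooled level fell at 7-12 h for 33 members, at 13-17 h for 35 and at 18-23 h for 14, and at 25-30 h or 31-36 h for 0. Per spike-in count in place of CPM, 33, 30, 1, 10 and 8 members were highest in these 5 blocks. Levels were above the 7-12 h value in 46 members at 13-17 h, 34 at 18-23 h, 14 at 25-30 h and 9 at 31-36 h. Conversely, 21, 28, 52 and 60 members were under 0.5 of their 7-12 h level in those blocks. The median level over the members was 12.6, 24.8, 38.7, 46.0, 51.2 and 50.4 CPM in the embryos of 7 to 12 h. In those of 13 to 17 h it was 40.1, 33.1, 38.9, 37.8 and 34.6 CPM. Among single embryos it was thus highest at 11 and 12 h, which are too close to rank, since the 11 h library had only 136791 counts. Their median pooled level was 0.945, 36.5, 39.5, 31.6, 13.1, 8.21 and 9.33 CPM over the 7 blocks of 1-6 to 37-51 h. By 31-36 h, 78 of the 82 were under 0.5 of their own highest block.

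The summed level was highest at 13-17 h. Pooled over each block it was 115, 4497, 7021, 4760, 2509, 1526 and 846 CPM from 1-6 to 37-51 h. The kept transcripts, with the same onset, summed to 245, 5190, 12384, 12914, 10680, 10205 and 9642 CPM. The likeness of the pooled sums at 7-12 h did not hold in single embryos. Members and kept transcripts summed to 5478 and 3214 CPM at 8 h, and to 5946 and 10813 CPM at 12 h. At 31-36 h the pooled kept sum was above its 7-12 h value while the member sum was below it. Among single embryos, the member sum ran from 1047 to 2370 CPM at 31-36 h (median 1356). At 13-17 h it ran from 5620 to 10623 CPM (median 6276), with no overlap between these blocks in CPM. Per spike-in count in place of CPM, the ranges of these blocks overlapped, though the median was still lower at 31-36 h. The block medians on that scale did not fall steadily, being lower at 18-23 h than at 25-30 h.

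**Figure D2:**
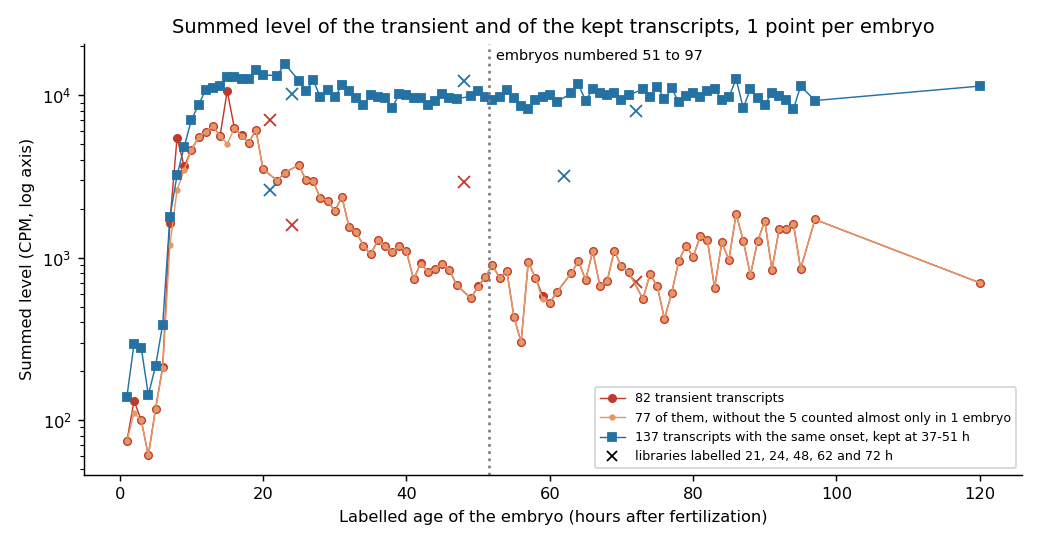
Summed CPM (log axis) of the 82 transient and the 137 kept transcripts in every embryo, by labelled age in hours, with crosses for the libraries labelled 21, 24, 48, 62 and 72 h and a dotted line between embryos of up to 51 h and of 52 h or more. Between 7 and 12 h the transient sum goes to 5946 CPM with a high value at 8 h and the kept sum to 10813 CPM; the transient sum is highest at 15 h (10623 CPM) and declines to 563 to 1185 CPM at 37-51 h without the 48 h library, while the kept sum pooled over those embryos is 9642 CPM.

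Of the 5 most abundant members at 7-12 h, 4 rested on 1 embryo. PT_v1_tr_09276 had the highest pooled level of all members, 393 CPM, from 128.9, 1115, 45.8, 0, 0 and 0 CPM in the embryos of 7, 8, 9, 10, 11 and 12 h. PT_v1_tr_03073 had 25.1, 821, 0, 2.9, 0 and 0 CPM, PT_v1_tr_00727 had 0, 533, 70.5, 0, 0 and 0 CPM, and PT_v1_tr_10716 had 18.9, 398, 17.6, 0, 0 and 0 CPM. All 4 were thus highest at 8 h, far lower at 7 and 9 h and at 0 to 2.9 CPM from 10 to 12 h. Later counts were few, the most in 1 embryo being 25 of PT_v1_tr_00727 at 59 h and 9 of PT_v1_tr_03073 at 50 h. Together with PT_v1_tr_01991, these 4 formed the 5 members with over 90% of their counts of 1-51 h in 1 embryo. This class was named after its values were seen. No second embryo of 8 h exists in the series, so a pulse of about an hour and a peculiarity of that embryo or library cannot be told apart.

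PT_v1_tr_01991 behaved differently in time. It had 283 CPM at 7 h, 0 at 8 h and 21.1 at 9 h, and then 5614 CPM in the embryo of 15 h, from 2237 counts. The embryos of 13, 14, 16 and 17 h had 0, 4.4, 0 and 17.3 CPM, so the block value of 1241 CPM describes the 15 h embryo alone. In that embryo it made up 52.8% of the member sum. Without these 5 members, the pooled sum was 5779 CPM at 13-17 h and 3461 CPM at 7-12 h, so the later block was the higher with and without them. Among the other members, sharing was wider: in all, 16 of the 82 had over 50% of their 7-12 h counts in 1 embryo. The 8 h library is also the deepest of its block, with 645538 counts against 136791 to 347629 in the other 5, and held the largest count of 29 members but the highest CPM of 10.

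**Figure D3:**
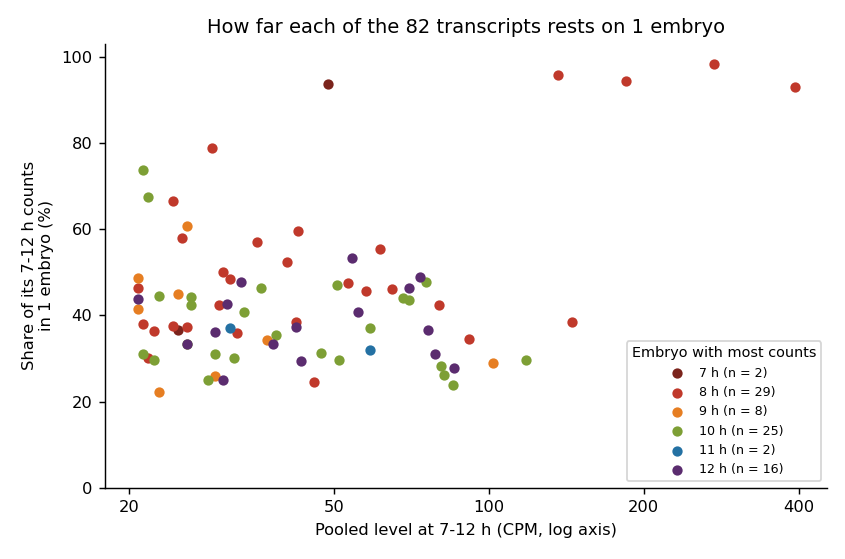
Share of a member's 7-12 h counts that came from 1 embryo (y, percent) against its pooled 7-12 h level (x, CPM, log axis), coloured by that embryo's age. Of the points above 90%, 4 belong to the 8 h embryo and lie at the upper right, and 1 belongs to the 7 h embryo, while most members lie at or under 50%.

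The members next in abundance were present across embryos. PT_v1_tr_08402 had 59.7, 170, 106, 175.5, 139 and 197 CPM at 7 to 12 h, and its 13-17 h embryos had 214, 128, 163, 173 and 244 CPM. It was highest at 18-23 h, where embryos ran from 31.7 to 349 CPM (median 260). PT_v1_tr_08512 was at 0 at 7 h and had 54.2, 95.1, 199, 249 and 285 CPM at 8 to 12 h, then 605, 260, 260, 584 and 443 CPM at 13 to 17 h. Both had their highest level of 7-12 h in the 12 h embryo, as had PT_v1_tr_07998, with 18.9, 35.6, 77.5, 121, 102 and 201 CPM at 7 to 12 h and 508, 225, 221, 364 and 482 CPM at 13 to 17 h.

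Others were already at their highest at 7-12 h. PT_v1_tr_09435 had 12.6, 58.9, 204, 164, 168 and 88.1 CPM at 7 to 12 h and a pooled level of 82.3, 68.0, 53.5, 43.6 and 21.0 CPM in the blocks from 13-17 to 37-51 h. PT_v1_tr_09444 had 56.6, 96.0, 84.5, 101, 117 and 105 CPM at 7 to 12 h, the narrowest spread among the 8 most abundant members at that age. Its pooled level was 32.1, 49.4, 14.0, 17.9 and 12.6 CPM in the blocks from 13-17 to 37-51 h, and its highest embryo of 1-51 h was that of 18 h, with 129 CPM. The level of PT_v1_tr_09435 was thus lower in each later block to 37-51 h, while that of PT_v1_tr_09444 was not.

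A late member showed how far 1 library can carry a block. PT_v1_tr_05185 had a pooled level of 601 CPM at 18-23 h, the highest of the 14 members that peaked there, and 37.1 CPM at 7-12 h. Without the 21 h library its 18-23 h level was 188 CPM, below the 231 CPM of PT_v1_tr_08402. Of its embryos of 18 to 23 h, the 21 h library had 6538 CPM and the others had 38.0, 203, 349, 470 and 0 CPM. It held 92.7% of the member sum at 21 h, and the other members summed to 518 CPM in that library, against 2506 to 5948 CPM in the other 5 libraries of 18-23 h. From 27 h on, PT_v1_tr_05185 was at 0 in every embryo to 51 h. PT_v1_tr_08068, which also peaked at 18-23 h, was counted in all 6 of these embryos, at 29.4 to 226 CPM (median 146).

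**Figure D4:**
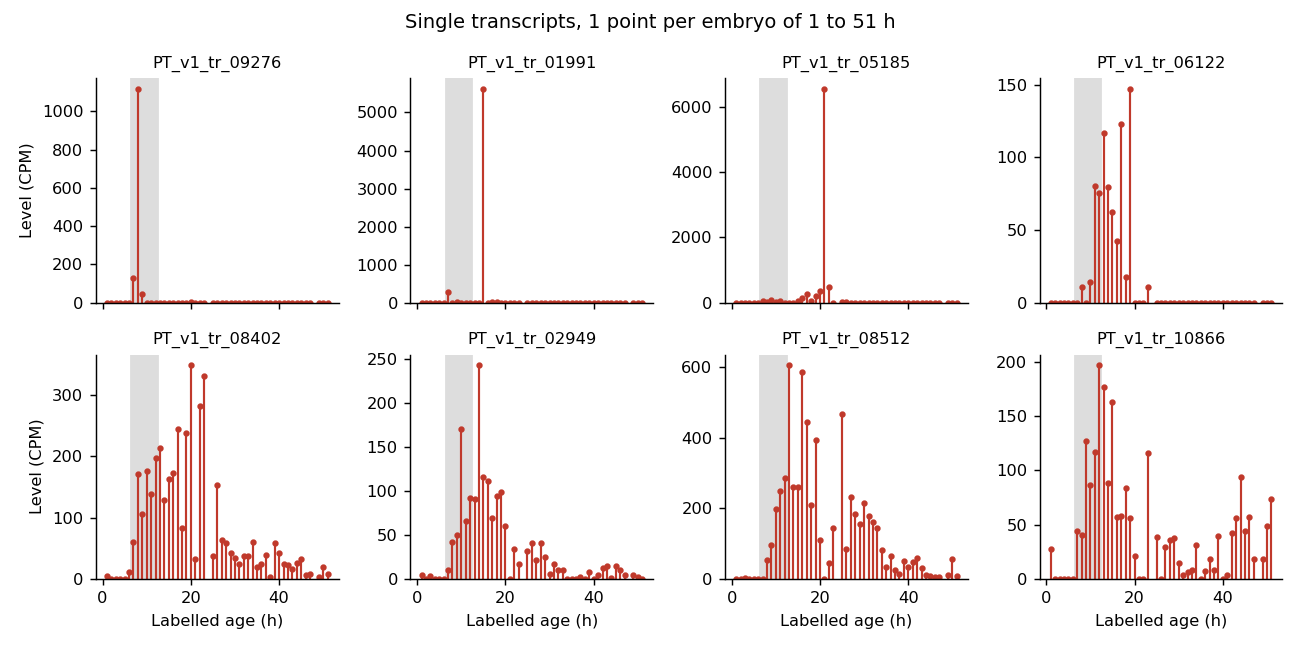
Level (CPM, linear axes with different ranges) of 8 members in each embryo of 1 to 51 h without 24 and 48 h, with 7-12 h shaded. PT_v1_tr_09276, PT_v1_tr_01991 and PT_v1_tr_05185 stand on the embryos of 8, 15 and 21 h, PT_v1_tr_06122 ends before 25 h, PT_v1_tr_08402, PT_v1_tr_02949 and PT_v1_tr_08512 are lower in most embryos after 25 h, and PT_v1_tr_10866 is low at 31-36 h and higher again at 44 h (94.0 CPM).

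When the members were lost was tested with embryos outside the choice, as 25-36 h (n = 12) against 13-23 h (n = 11). Both windows lie between the early block where members had to be high and the late block where they had to be low. The choice therefore favours falls over rises in this comparison, and the numbers of calls are not independent of it. Of the 30 members with enough counts to test, 14 fell and 0 rose (edgeR quasi-likelihood test, Benjamini-Hochberg adjusted p under 0.05). Over all 4262 transcripts tested, 10.3% fell and 11.8% rose. Since a transcript may pass the filter on low counts only through the window where it is high, the test was also run with no filter. There 20 of 82 members fell and 0 rose, beside 5.73% and 9.25% of 10741 transcripts. The fitted change was negative in 74 of the 82, with a median log2 change of -0.96, against 0.13 over all transcripts. Of the kept transcripts, which the opposite late limit defines, 15 fell and 7 rose among 112 tested.

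The 14 members that fell did so by 1.19 to 2.45 on the log2 scale. PT_v1_tr_08402 ran from 19.5 to 153 CPM at 25-36 h (median 37.4), against 31.7 to 349 CPM at 13-23 h (median 214), a log2 change of -2.12 ± 0.36 (SE, edgeR adjusted p = 9.6e-05). PT_v1_tr_10907 ran from 0 to 53.7 CPM (median 5.48) at 25-36 h, against 5.5 to 187 CPM (median 68.4) at 13-23 h, a log2 change of -2.45 ± 0.58 (edgeR adjusted p = 0.0031). PT_v1_tr_10456 ran from 5.7 to 194 CPM (median 30.7) at 25-36 h, against 0 to 374 CPM (median 132) at 13-23 h, a log2 change of -2.05 ± 0.49 (edgeR adjusted p = 0.0034). The ranges overlapped in all 3 while the medians lay far apart, and the low end at 13-23 h came from the libraries of 20-23 h, the 21 h library for PT_v1_tr_08402 and PT_v1_tr_10456. PT_v1_tr_07998 changed least of the 14, with 41.0 to 268 CPM (median 125) at 25-36 h, against 10.6 to 508 CPM (median 274) at 13-23 h, a log2 change of -1.19 ± 0.32 (edgeR adjusted p = 0.0086).

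These calls describe the share of the transcript pool, not an amount per embryo. Scaled to spike-in counts instead, 0 of 31 members were called in this comparison and 4 had an unadjusted p under 0.05 (edgeR). Over all 4555 transcripts tested, 2529 were called higher and 30 lower. Of 115 kept transcripts, 39 were called higher and 0 lower. The median log2 change was -0.02 for the members, against 1.28 over all transcripts tested. Spike-in share moved with the windows too, at 7.01% to 14.8% over the libraries of 25-36 h, against 10.1% to 28.4% over those of 13-23 h, and its part in the result was not tested. Without the 4 libraries of 20-23 h, a check that was not planned, 27 of 46 tested members fell and 0 rose. Over all 5367 transcripts tested there, 515 fell and 618 rose. With the library total as a covariate, 13 of 30 members fell, beside 155 falls and 175 rises among 4262 transcripts. The adjusted p of PT_v1_tr_10456 was then 0.129 (edgeR).

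**Figure D5:**
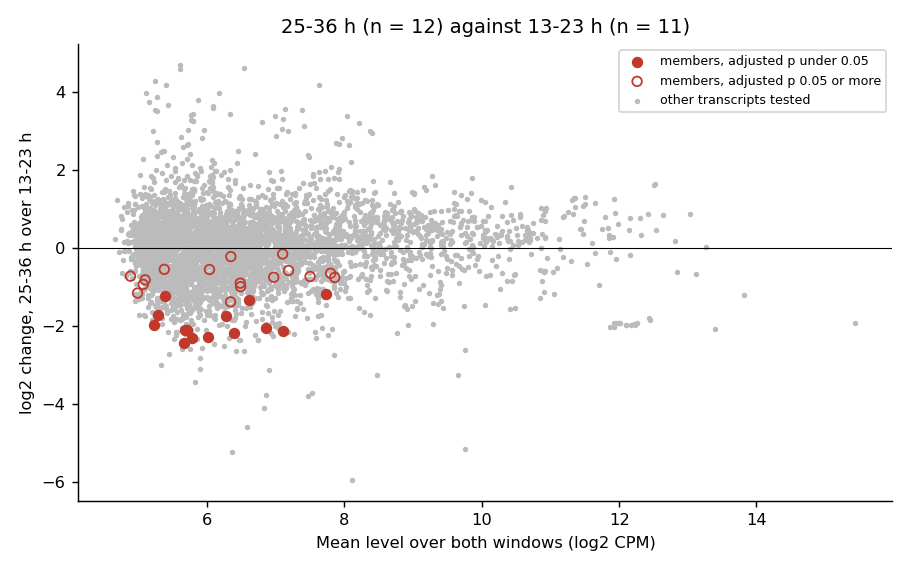
Log2 change at 25-36 h over 13-23 h (y) against mean level over both windows (x, log2 CPM) for the 4262 transcripts tested by edgeR, with members in red, filled where the adjusted p is under 0.05. All 30 tested members lie below 0, and the 14 that fell lie between -1.19 and -2.45.

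In a fit of log2 level on age over the 23 embryos of 13-36 h, 23 of 45 tested members fell and 0 rose (edgeR adjusted p under 0.05), beside 8.13% and 10.4% of the 5422 transcripts tested. With no filter, 24 of 82 fell and 0 rose, beside 5.48% and 9.30% of 10741. These fits use the same embryos as the comparison of windows and add a rate, not independent evidence. The choice of members favours falls here too. The 23 slopes ran from -0.74 to -0.08 log2 units per hour, with a median of -0.16, which brings a level to 0.5 of itself in 6.08 h. PT_v1_tr_05185 was the steepest, at 1.35 h, with a slope of -0.74 ± 0.22, and without the 21 h library its slope was -0.47 ± 0.12 (SE, edgeR adjusted p = 0.0050). PT_v1_tr_07675 was the shallowest, at 13.2 h. With spike-in scaling 10 of 48 members fell and 0 rose, beside 66 falls and 2212 rises among 5835 transcripts.

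The 3 members with the smallest p for the slope moved almost as 1 transcript. PT_v1_tr_02949 fell by 0.22 ± 0.03 log2 units per hour (SE, edgeR adjusted p = 1.9e-05), PT_v1_tr_04408 by 0.23 ± 0.04 (edgeR adjusted p = 2.1e-05) and PT_v1_tr_00590 by 0.21 ± 0.04 (edgeR adjusted p = 8.5e-05). Their levels dropped to 0.5 in 4.50, 4.39 and 4.66 h. PT_v1_tr_02949 had 9.4, 41.8, 49.3, 170, 65.8 and 92.3 CPM at 7 to 12 h, PT_v1_tr_04408 had 9.4, 58.9, 42.3, 204, 80.4 and 58.7 CPM, and PT_v1_tr_00590 had 9.4, 49.6, 45.8, 173, 36.6 and 105 CPM. All 3 spiked in the embryo of 10 h, again at 14 h with 243, 207 and 190 CPM, and were at 0 at 21 h. Across the 49 embryos of 1-51 h without 24 and 48 h, Pearson's r of log2(CPM + 1) was 0.94 for PT_v1_tr_02949 with PT_v1_tr_04408, 0.94 with PT_v1_tr_00590, and 0.93 between PT_v1_tr_04408 and PT_v1_tr_00590.

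Such likeness was rare. Of the 3321 pairs of members, 7 had r over 0.9 and 0 over 0.95, with a median of 0.33; the embryos share library depth and age, so these values describe the profiles. Of the 7 pairs, 3 joined neighbouring identifiers: PT_v1_tr_07675 and PT_v1_tr_07676 (r = 0.92), PT_v1_tr_02625 and PT_v1_tr_02626 (r = 0.91), and PT_v1_tr_01614 and PT_v1_tr_01615 (r = 0.91). These were the only members with consecutive identifiers, and whether such neighbours share reads was not tested, so each such pair may be 1 signal and its split is uncertain.

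Within the earlier window, no timing could be called. Between 18-23 h (n = 6) and 13-17 h (n = 5), 0 of 43 tested members and 0% of 3879 transcripts passed the edgeR threshold in either direction, with 3 members at an unadjusted p under 0.05; with no filter 0% of 10284 passed. These 3 were PT_v1_tr_08512, with a log2 change of -1.33 ± 0.57 (SE), PT_v1_tr_02618, with -1.43 ± 0.64, and PT_v1_tr_05185, with 4.49 ± 1.90, or 1.29 ± 1.11 without the 21 h library. DESeq2 called 29 transcripts and 0 members, with 6 members at an unadjusted p under 0.05. The classes by highest block therefore order pooled levels and were not separated by a test.

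Some members ended altogether. PT_v1_tr_10716, PT_v1_tr_01991 and PT_v1_tr_06122 had no count in any of the 73 embryos from 25 h on. PT_v1_tr_06122 was the only one of these seen in many embryos: it had 117, 79.4, 62.7, 42.6 and 123 CPM at 13 to 17 h and 17.7, 147, 0, 0, 0 and 11.0 CPM at 18 to 23 h. Its pooled level at 13-17 h, 84.5 CPM, was at least 203-fold higher than the 0.417 CPM that 3 counts over all libraries of 25-36 h would give. PT_v1_tr_09276 had 1 count in those 73 embryos. In all, 12 members had no count in any embryo of 52 h or older, leaving out the libraries labelled 62 and 72 h.

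Fewer members were detected per embryo from 52 h on. An embryo of 37-51 h had a count for 46 to 67 members (median 61), one of 52-65 h for 4 to 41 (median 18) and one of 66-120 h for 5 to 28 (median 13), and the step from 51 to 52 h is also the step from embryo 50 to embryo 51. Detection dropped for all transcripts across that step, with medians of 9341, 5144 and 4528 of 10907 per embryo in the same blocks, and of 133.5, 84 and 64 of the 137 kept transcripts. Over a whole block, 77, 64 and 64 of the 82 members had a count. The same numbers were 137, 134 and 130 of the 137 kept transcripts, and 10776, 10046 and 10310 of all 10907. Pooled sums were 846, 716 and 1020 CPM. At 66-120 h, 4 members were above their 7-12 h level: PT_v1_tr_04106 at 212 CPM, PT_v1_tr_10866 at 135 CPM, PT_v1_tr_03812 at 34.0 CPM and PT_v1_tr_06107 at 29.0 CPM. At 52-65 h, 1 member was.

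PT_v1_tr_04106 rose in late larvae after being nearly absent at 37-51 h. It had 0, 27.9, 21.1, 11.5, 73.1 and 42.0 CPM at 7 to 12 h and was at 0 to 7.2 CPM at 37-51 h. At 66-120 h (n = 31) it ran from 0 to 1169 CPM (median 143, counted in 24 embryos), against 0 to 41.9 CPM at 52-65 h (n = 13, median 0, counted in 5). The log2 change was 4.35 ± 1.08 (edgeR adjusted p = 0.011), and its late median is above its highest embryo of 7-23 h, 107 CPM. It was the 1 member of 16 tested that rose, and 0 fell, beside 1.47% and 1.94% of the 5249 transcripts tested. With the library total as a covariate its adjusted p was 0.059. With no filter 7 of 70 members rose and 7 fell, beside 5.59% and 4.85% of 10599. Several of these rest on 1 to 3 embryos, such as PT_v1_tr_07998, with all its 34 counts of 66-120 h in 1 embryo, and the trio of PT_v1_tr_02949, PT_v1_tr_04408 and PT_v1_tr_00590, each counted at 68, 69 and 79 h and at 0 in the other libraries used.

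The 3 members with the highest pooled level at 52-65 h had counts in every block from 13-17 to 66-120 h, though not in every embryo. All 3 were at 0 in the embryo of 56 h, for instance. PT_v1_tr_10866 had a pooled level of 104, 54.9, 28.3, 7.76, 41.4, 73.4 and 135 CPM in the blocks from 13-17 to 66-120 h, lowest at 31-36 h. At 25-36 h it was lower than at 13-23 h by a log2 change of -2.11 ± 0.59 (edgeR adjusted p = 0.011). PT_v1_tr_02626 had a pooled level of 81.7 CPM at 7-12 h, 29.4 CPM at 37-51 h and 62.4 CPM at 66-120 h. The neighbouring PT_v1_tr_02625 had 80.7, 28.9 and 62.9 CPM in the same blocks. For neither PT_v1_tr_10866, PT_v1_tr_02626 nor PT_v1_tr_02625 did the change between 66-120 h and 52-65 h pass the threshold.

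The edges of the choice were close. For the 1-6 h limit, PT_v1_tr_01416 lay just inside at 4.41 CPM and PT_v1_tr_02667 just outside at 5.04 CPM. For the 7-12 h limit, PT_v1_tr_06122 lay inside at 20.8 CPM and PT_v1_tr_06096 outside at 19.8 CPM. For the ratio of 37-51 h to 7-12 h, PT_v1_tr_06407 lay inside at 0.494 and PT_v1_tr_09181 outside at 0.504. PT_v1_tr_08334 had the smallest ratio of 7-12 h to 1-6 h, 5.18, with no transcript outside that met the other limits. PT_v1_tr_06407 also shows how a member just inside can be more abundant later: its pooled level was 20.8 CPM at 7-12 h, 90.6 CPM at 13-17 h and 117 CPM at 18-23 h.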

How the data were processed

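Polyadenylated RNA of 97 single embryos was measured by CEL-Seq, and the authors deposited raw whole-number counts for every transcript in 1 table. The tools Bowtie2 2.1.0, HTSeq 0.5.4p3 and CASAVA 1.8 are listed, per the submitters' processing notes, and their roles and the reference are not given in the sources used here. No molecular identifiers are named, so counts are reads, and floors of 3 counts cover counting error only. Besides 10908 transcripts the table has 92 spike-ins and 5 summary rows, which held 4.09% and 57.7% of all counts and stayed out of library sizes and tests, as did PT_v1_tr_02502. No 2 embryos had identical counts.

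CPM divides summed counts by summed totals of a block. Windows were compared on the deposited counts by edgeR 4.0.16 under R 4.3.3 (robust quasi-likelihood, TMM library sizes, a minimum count of 10 in filterByExpr). Only embryos of the compared windows entered a fit. Adjusted p-values (Benjamini-Hochberg, over every transcript tested) under 0.05 were called. The fits were checked on simulated counts. DESeq2 1.42.0, other scalings, no filter and left-out libraries were alternatives. The members, windows, tests and the rule for named transcripts were chosen with earlier results of these data known. That rule names the 8 members highest at 7-12 h, the 3 highest in each class of highest block, up to 3 with the smallest p per test and direction, the 3 highest at 52-65 h and at 66-120 h, and the transcripts at each limit. Others named beside them were chosen after their values were seen.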

Additional observations from a re-analysis of the deposited data

Results flagged for a closer look

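In 11 of the 38 groups of embryos tested, the highest or lowest value lay far from the others for the size of the group. The limit used is passed by chance in about 1 group in 20. That rate does not hold where all embryos but 1 are at 0, since such a group always passes, so the number flagged cannot be set against it. The summed level of the members at 15 h, 10623 CPM, stood above the other embryos of 13-17 h and holds 5614 CPM of PT_v1_tr_01991. PT_v1_tr_08512 was at 0 CPM at 7 h and at 0 CPM at 21 h, below all other embryos of 7-12 h and of 18-23 h. PT_v1_tr_09435 was lowest of 13-17 h at 15 h, with 25.1 CPM.

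The other 7 were single low values in blocks where all other embryos were at 0: PT_v1_tr_09276 at 4.26 CPM and PT_v1_tr_03073 at 8.51 CPM, both in the 20 h embryo, PT_v1_tr_00727 at 2.43 CPM at 25 h, PT_v1_tr_10716 at 21.1 CPM at 2 h and 3.34 CPM at 13 h, PT_v1_tr_08512 at 2.85 CPM at 3 h, and PT_v1_tr_09435 at 6.98 CPM at 6 h. Each is 1 to 4 counts, and a lone value among zeros passes the limit whatever its size. The choice of members also keeps levels at 1-6 h near 0.

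Among libraries that no block value used, the one labelled 48 h had a summed member level of 2913 CPM, against 563 to 1185 CPM in the other embryos of 37-51 h, and counts for 58 members. The library labelled 24 h had a summed level of 1578 CPM with counts for only 12 members. Of that, 955 CPM was PT_v1_tr_04106, whose highest value in the other embryos of 7 to 51 h was 107 CPM. At 66-120 h, however, that transcript reached 1169 CPM, and embryos had counts for 5 to 28 members. The embryo labelled 24 h is numbered 95, among the late larvae, and whether its labelled age is right was not tested. A difference between these libraries and their neighbours was not tested, since each is 1 embryo.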

How the results depend on the processing

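The count of 14 members called lower at 25-36 h than at 13-23 h was 0 with spike-in scaling, 27 without the libraries of 20-23 h and 28 without them and with no filter. Over all transcripts tested, 437 of 4262 were called lower in the main fit. In these settings the numbers were 30 of 4555, 515 of 5367 and 627 of 10726. The count of 23 for the slope was 10 with spike-in scaling, beside 441 of 5422 and 66 of 5835 transcripts. Causes were not tested. The single call at 66-120 h against 52-65 h became 14 with no filter, which tested 70 members in place of 16, and 0 when library total was added as a covariate. Leaving out each embryo in turn gave 13 to 16 calls for 25-36 h against 13-23 h and 0 for 18-23 h against 13-17 h. For the named members, 334 alternative fits of the first comparison stayed past the threshold and 16 did not, while for the slope 145 did and 9 did not, and none changed sign.

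The number of members, 82, was 41 with PT_v1_tr_02502 in the totals (24 shared), 53 with TMM-scaled totals, 38 with a limit of 40 CPM at 7-12 h, 42 with a late ratio under 0.25, and 72 to 113 without each embryo of 1-12 h in turn. Members highest at 18-23 h numbered 1 per spike-in count and 9 by mean CPM, in place of 14; at 25-30 h they numbered 10 and 1, and at 31-36 h 8 per spike-in count, in place of 0. Single members at 18-23 h against 13-17 h were not followed across all settings, since none was called. No paired analysis was possible because the labels give no replicate number shared between blocks. At the depths of 18-23 h a member of a few CPM has 1 count or none per embryo, so low levels could not be followed.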
